A study of Mus musculus with 9 samples.

Results

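Metallothioneins are small cysteine-rich proteins that bind zinc and copper, and in the mouse Mt1 and Mt2 are the forms made in most tissues. They were examined together with Mtf1, the zinc-sensing transcription factor that drives them, and Slc30a1, which encodes ZnT1, the transporter that carries zinc out of the cell. The 4 genes were taken by their symbols from a table of 17266 genes, and all 4 were among the 13750 genes that passed the filter on low values (at least 10 normalized counts in at least 3 libraries). They were measured by poly-A RNA sequencing in mouse bone marrow cells in 3 groups of 3 libraries. The first group carried retrovirus MigR1-ETV6-NCOA2-IRES-GFP, the second carried MigR1-KAT6A-NCOA2-IRES-GFP, and the empty vector group carried MigR1-IRES-GFP with no fusion gene. Each fusion joins part of a blood-cell regulator, ETV6 or KAT6A, to the nuclear receptor coactivator NCOA2. In all 3 groups the marrow came from female C57B/6 mice of 6 weeks, lineage-positive cells had been removed with magnetic beads, the cells grew for 5 days in RPMI with SCF, IL-6 and IL-3, and cells positive for GFP were sorted. The fusions were expressed from the retroviral vector and not from the native genes. Whether the 3 libraries of a group came from separate animals, infections or cultures is not given in the labels, and the p-values describe variation among these libraries only, part of which may be technical.

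MTF1 is held mostly inactive at low zinc. When free zinc rises in the cell, zinc binds its zinc fingers and the factor binds metal response elements in the promoters of the metallothionein genes and of Slc30a1. The metallothioneins then bind the metal and ZnT1 exports it, which closes a feedback loop. The metallothionein genes also respond to glucocorticoids, to interleukin-6 through STAT3 and to oxidative stress, so that their transcripts are not read out from zinc alone. Mtf1 itself is regulated largely at the level of its protein.

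The promoters are shown because the metal response element is the sequence that ties the 3 target genes to MTF1. Each is 280 bases from RefSeq on GRCm38.p6, plus strand, from 250 bases before the RefSeq start to 30 bases after it, and capitals mark matches to the core TGCACNC or TGCGCNC on either strand. The Mt1 promoter is chr8:94178839-94179118, the Mt2 promoter chr8:94172368-94172647 and the Slc30a1 promoter chr1:191906531-191906810.
Mt1: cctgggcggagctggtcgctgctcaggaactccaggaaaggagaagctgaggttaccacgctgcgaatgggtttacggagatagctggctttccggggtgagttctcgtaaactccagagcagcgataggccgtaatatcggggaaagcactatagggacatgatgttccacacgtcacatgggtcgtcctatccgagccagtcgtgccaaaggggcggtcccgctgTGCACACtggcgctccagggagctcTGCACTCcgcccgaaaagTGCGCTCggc
Mt2: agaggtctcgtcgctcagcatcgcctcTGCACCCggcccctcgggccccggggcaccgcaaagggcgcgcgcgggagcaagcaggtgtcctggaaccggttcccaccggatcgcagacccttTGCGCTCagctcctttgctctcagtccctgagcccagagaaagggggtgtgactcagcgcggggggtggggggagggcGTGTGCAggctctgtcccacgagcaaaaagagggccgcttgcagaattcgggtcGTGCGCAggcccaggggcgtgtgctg
Slc30a1: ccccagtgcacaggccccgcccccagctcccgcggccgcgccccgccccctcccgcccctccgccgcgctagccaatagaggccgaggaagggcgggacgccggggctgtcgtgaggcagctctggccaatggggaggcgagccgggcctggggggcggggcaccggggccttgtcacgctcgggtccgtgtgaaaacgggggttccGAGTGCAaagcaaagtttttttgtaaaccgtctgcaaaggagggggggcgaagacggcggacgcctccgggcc
In the full RefSeq window of 300 bases, Mt1 held 3 matches, Mt2 held 4 and Slc30a1 held 2, of which 1 lies within the printed bases. Matches lying wholly before the RefSeq start numbered 1 for Mt1, 3 for Mt2 and 1 for Slc30a1. The Mtf1 window held 0 matches. Of 32851 RefSeq promoters of this length, 25.7% held at least 1 match, 1.97% held at least as many as Mt1 and 0.517% at least as many as Mt2. For Slc30a1 that share was 7.11%. The antioxidant response element that NRF2 binds was searched as TGACNNNGC or TGAGNNNGC on both strands. It matched once each in the Mt2 and Mtf1 windows, 2 times in the Slc30a1 window and 0 times in the Mt1 window, and 27.8% of promoters held at least 1. The STAT site TTCNNNGAA was absent from all 4 windows and present in 8.30% of promoters. GENCODE lists further Mt1 starts 122 and 152 bases downstream of the RefSeq start and Mt2 starts 46 and 242 bases downstream. It also lists a Slc30a1 start 475 bases downstream and an Mtf1 start 445 bases upstream. Sequence near these starts lay partly or wholly outside the windows, so that the counts of matches refer to the RefSeq starts.

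On GRCm38, Mt2 spans chromosome 8 from 94172664 to 94173568 and Mt1 spans 94179082 to 94180327 on the same strand, with 5513 bases between them. Both genes have 3 exons, and the transcripts used here are 549 bases long for Mt1 and 511 for Mt2. The longest stretch that the Mt1 and Mt2 transcripts share is 20 bases. Over stretches of 50 bases, none of the 4 genes shared sequence with the transcripts of another gene. Mtf1 lies on chromosome 4 (124802104 to 124849800, 11 exons) and Slc30a1 on chromosome 1 (191906767 to 191913247, 2 exons), both on the plus strand.

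The libraries held 17.1 to 20.4 M reads, recovered from the deposited normalized counts. Markers of several cell types differed between the groups. Across all genes tested, 2.84% were called (adjusted p below 0.05) with ETV6-NCOA2 and 25.4% with KAT6A-NCOA2. Of 12 mast cell and basophil markers, 0 rose and 6 fell with ETV6-NCOA2, and 1 rose and 10 fell with KAT6A-NCOA2. Leaving out 1 library gave 2 to 9 such calls with ETV6-NCOA2 and 9 to 12 with KAT6A-NCOA2. The summed level of these markers was 29750 to 45062 normalized counts in ETV6-NCOA2 libraries, 13570 to 31258 in KAT6A-NCOA2 libraries and 72665 to 136497 in empty vector libraries. Neutrophil granule markers summed to 5672 to 10982 in ETV6-NCOA2 libraries, 986 to 1668 in KAT6A-NCOA2 libraries and 13182 to 19103 in empty vector libraries. Macrophage markers summed to 148379 to 174021 in ETV6-NCOA2, 174070 to 208944 in KAT6A-NCOA2 and 115024 to 162525 in empty vector libraries, and of 9 such markers 1 rose with ETV6-NCOA2 and 4 rose with KAT6A-NCOA2. Progenitor markers summed to 9424 to 12884 in ETV6-NCOA2, 5951 to 9221 in KAT6A-NCOA2 and 14081 to 21236 in empty vector libraries. Kit and Gata2 are on both this list and the mast cell and basophil list, so the sums share genes. With ETV6-NCOA2 2 of the 6 progenitor markers were called lower. Cd34 overlapped, at 5745, 5449 and 3915 in ETV6-NCOA2 replicates 1, 2 and 3 and 4492, 4671 and 5057 in the empty vector replicates. Erythroid markers summed to 2312 to 3260 in ETV6-NCOA2, 2516 to 3242 in KAT6A-NCOA2 and 3312 to 4996 in empty vector libraries. The 5 markers of T, B and NK cells in the table summed to 154 to 166 in ETV6-NCOA2, 57.3 to 73.3 in KAT6A-NCOA2 and 79.3 to 111 in empty vector libraries. Much of the ETV6-NCOA2 sum was Klrb1c, an NK cell marker, with 87.8, 73.7 and 94.6 normalized counts in ETV6-NCOA2 replicates 1, 2 and 3, 4.07, 6.31 and 4.67 in the KAT6A-NCOA2 replicates, and 0.96, 9.58 and 3.55 in the empty vector replicates. It was the 1 call among the 3 of these markers tested with ETV6-NCOA2, and their median log2 fold change was -0.26. No marker was at 0 in every library of a group. The part of these marker differences in the results on zinc genes was not tested, and in bulk RNA fewer cells of a type and less RNA per cell cannot be told apart. Empty vector replicate 2 stood apart in the fits. Without it 1765 genes were called with ETV6-NCOA2, against 390 with all libraries, and member values that depend on it are given below.

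Mt1 was the most abundant of the 4 transcripts and Mtf1 the least, per kilobase of transcript, in every library. Mt1 averaged 9076 normalized counts per kilobase in ETV6-NCOA2 libraries, 8356 in KAT6A-NCOA2 libraries and 6900 in empty vector libraries. Among 16753 genes with a transcript length it ranked between 81 and 137 by this level. Mt2 averaged 2373 normalized counts per kilobase with ETV6-NCOA2, 2308 with KAT6A-NCOA2 and 1320 with empty vector, and ranked between 321 and 1141. Slc30a1 averaged 133 with ETV6-NCOA2, 159 with KAT6A-NCOA2 and 116 with empty vector on this scale and ranked between 5812 and 7403. Mtf1 averaged 65.2 with ETV6-NCOA2, 70.7 with KAT6A-NCOA2 and 71.6 with empty vector, and ranked between 8193 and 8836. Mt3, the metallothionein best known from the brain, had 6 to 15 reads per library and was not called in any comparison, and Mt4 was not analysed here.

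**Figure D1:**
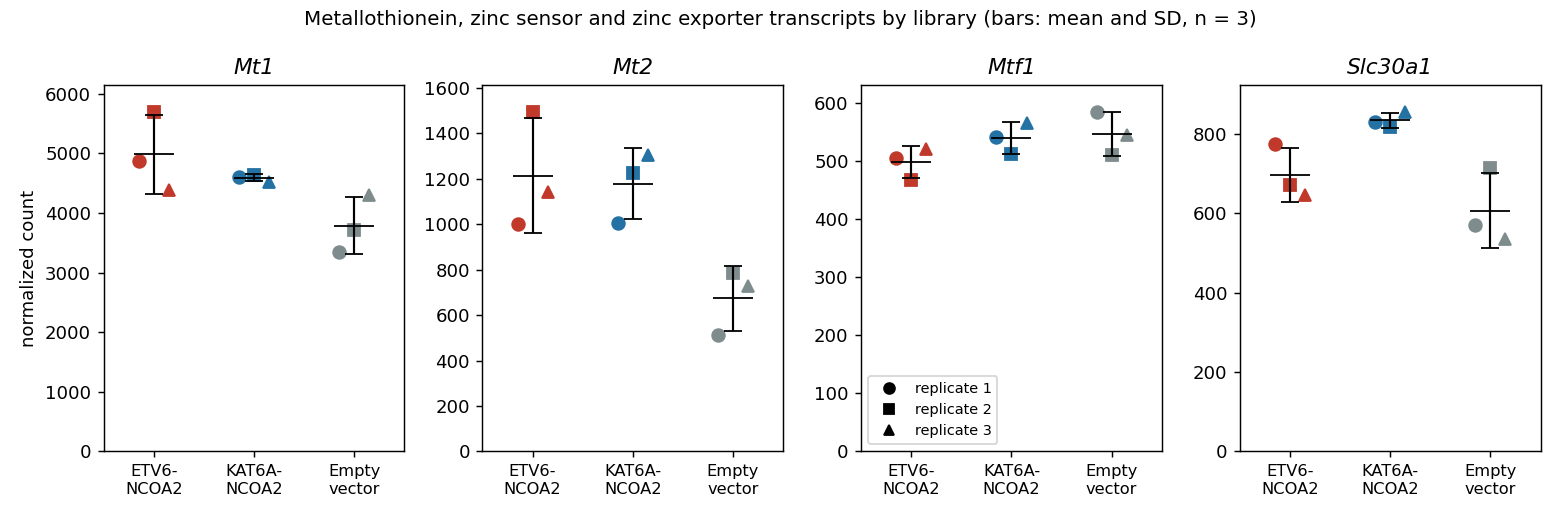
Normalized counts (vertical axes, starting at 0) of Mt1, Mt2, Mtf1 and Slc30a1 in the 9 libraries, with points for libraries, symbols for replicate numbers, and bars for the mean and SD of each group (n = 3). The 6 fusion libraries lie above the 3 empty vector libraries for Mt1 and Mt2, the Mtf1 groups overlap, and the KAT6A-NCOA2 libraries are the highest for Slc30a1.

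Mt2 was the metallothionein that passed the test with both fusions. It had 1003, 1494 and 1141 normalized counts in ETV6-NCOA2 replicates 1, 2 and 3, 1006, 1226 and 1305 in KAT6A-NCOA2 replicates 1, 2 and 3, and 512, 784 and 727 in the empty vector replicates. Every fusion library lay above every empty vector library, and the 2 fusion groups overlapped. Group levels were 1213 ± 253 with ETV6-NCOA2, 1179 ± 155 with KAT6A-NCOA2 and 674 ± 143 with empty vector (mean ± SD, n = 3 each). The log2 fold change was 0.85 ± 0.18 for ETV6-NCOA2 (SE, limma adjusted p = 0.0359), which is 1.80-fold with a 95% interval of 1.37 to 2.37. For KAT6A-NCOA2 it was 0.82 ± 0.18 (SE, limma adjusted p = 0.00861), or 1.77-fold with an interval of 1.34 to 2.32. The 2 comparisons share the empty vector libraries and are not independent of each other. With KAT6A-NCOA2 the call held in all 19 alternative fits, at log2 fold changes of 0.63 to 0.94. With ETV6-NCOA2 the direction held but the call was lost in 6 of the 9 fits that each left out 1 library. The log2 fold change and limma adjusted p were 0.69 and 0.129 without ETV6-NCOA2 replicate 2, 0.88 and 0.0983 without ETV6-NCOA2 replicate 3, 0.66 and 0.114 without empty vector replicate 1, and 0.92 and 0.0881 without empty vector replicate 3. Without KAT6A-NCOA2 replicate 2 or replicate 3, which enter only through the shared spread, the value stayed at 0.85 with adjusted p of 0.0626 and 0.0539. When only the 2 groups were fitted the adjusted p was 0.0712.

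Mt1 was higher in the fusion libraries by less, and did not pass the test. Its normalized counts were 4873, 5691 and 4384 in ETV6-NCOA2 replicates 1, 2 and 3, 4597, 4641 and 4524 in the KAT6A-NCOA2 replicates, and 3347, 3710 and 4307 in the empty vector replicates. Neither fusion group overlapped the empty vector group, though ETV6-NCOA2 replicate 3 and empty vector replicate 3 were close. Group levels were 4983 ± 660 with ETV6-NCOA2, 4587 ± 59.1 with KAT6A-NCOA2 and 3788 ± 485 with empty vector (mean ± SD, n = 3 each). The log2 fold change was 0.39 ± 0.11 for ETV6-NCOA2 (SE, limma adjusted p = 0.0788), with a 95% interval of 0.15 to 0.64. It was 0.28 ± 0.11 for KAT6A-NCOA2 (SE, limma adjusted p = 0.0801), with an interval of 0.04 to 0.53. DESeq2 on the recovered reads called the ETV6-NCOA2 difference, at 0.39 with an adjusted p of 0.0257. The KAT6A-NCOA2 difference was called without empty vector replicate 3, at 0.38 with a limma adjusted p of 0.0426. It shrank to 0.09 when libraries were scaled to equal totals, a setting that moved the median of all genes by -0.19 for this comparison.

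Mtf1, the sensor itself, did not pass the test in any comparison. It had 505, 467 and 521 normalized counts in ETV6-NCOA2 replicates 1, 2 and 3, 541, 512 and 566 in the KAT6A-NCOA2 replicates, and 584, 509 and 545 in the empty vector replicates. All 3 groups overlapped. The log2 fold change was -0.13 ± 0.08 for ETV6-NCOA2 (SE, limma adjusted p = 0.379), with a 95% interval of -0.31 to 0.04. For KAT6A-NCOA2 it was -0.017 ± 0.08 (SE, limma adjusted p = 0.899), with an interval of -0.19 to 0.16. The upper ends of these intervals, 0.04 and 0.16, lie below the lower ends of the intervals for Mt2, 0.45 and 0.42.

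Slc30a1, the exporter, rose with KAT6A-NCOA2. It had 775, 671 and 646 normalized counts in ETV6-NCOA2 replicates 1, 2 and 3, 830, 819 and 856 in the KAT6A-NCOA2 replicates, and 571, 715 and 535 in the empty vector replicates. The KAT6A-NCOA2 libraries lay above all 6 other libraries, and the ETV6-NCOA2 and empty vector groups overlapped, since empty vector replicate 2 was above 2 of the ETV6-NCOA2 libraries. Group levels were 697 ± 68.8 with ETV6-NCOA2, 835 ± 18.7 with KAT6A-NCOA2 and 607 ± 95.1 with empty vector (mean ± SD, n = 3 each). The log2 fold change for KAT6A-NCOA2 was 0.47 ± 0.11 (SE, limma adjusted p = 0.0114), or 1.39-fold with a 95% interval of 1.17 to 1.64. That call held in all 19 alternative fits, at log2 fold changes of 0.28 to 0.59. For ETV6-NCOA2 the log2 fold change was 0.21 ± 0.11 (SE, limma adjusted p = 0.315), with an interval of -0.03 to 0.45. It was called without empty vector replicate 2, at 0.33 with a limma adjusted p of 0.0387.

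**Figure D2:**
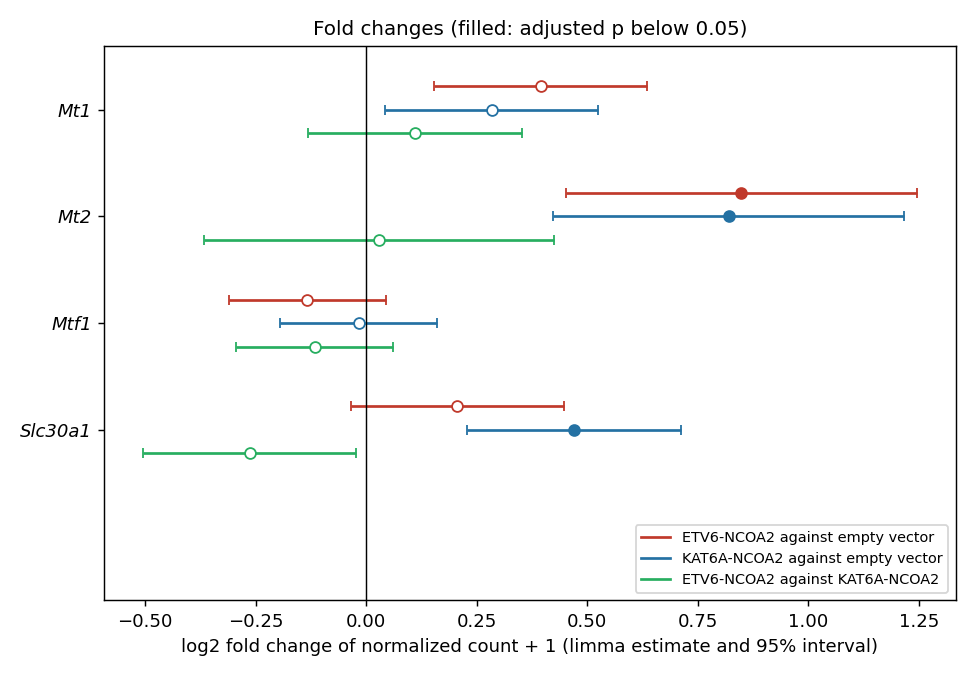
Log2 fold changes of normalized count + 1 (horizontal axis) for the 4 genes in the 3 comparisons, as limma estimates with 95% intervals, with filled points where the adjusted p was below 0.05. The 3 filled points are Mt2 with ETV6-NCOA2 (0.85), Mt2 with KAT6A-NCOA2 (0.82) and Slc30a1 with KAT6A-NCOA2 (0.47).

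With ETV6-NCOA2, 1 of the 4 genes was called, where 2.84% of the 13750 genes tested were called in that comparison (1.02% higher and 1.82% lower). The groups did not overlap for 2 of the 4, both higher, where 9.01% of all genes were higher and 12.5% lower without overlap. With KAT6A-NCOA2, 2 of the 4 were called, where 25.4% of all genes were called (11.6% higher and 13.7% lower). There 3 of the 4 were higher without overlap, against 21.2% of all genes (21.7% were lower). With equal library totals the genes called higher and lower were 92 and 407 for ETV6-NCOA2 in place of 140 and 250, and 666 and 4059 for KAT6A-NCOA2 in place of 1599 and 1889.

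Set directly against each other, the 2 fusions gave 0 calls among the 4 genes, where 3.09% of all genes were called (2.84% higher and 0.247% lower). DESeq2, edgeR and limma-voom also gave 0, and 1 of the 4 genes had an unadjusted limma p below 0.05. That gene was Slc30a1, lower with ETV6-NCOA2 than with KAT6A-NCOA2 without overlap (12.8% of all genes were lower and 14.4% higher without overlap). Its log2 fold change was -0.26 ± 0.11 (SE, limma adjusted p = 0.228), with a 95% interval of -0.50 to -0.02. For Mt2 the log2 fold change between the fusions was 0.03 ± 0.18 (SE, limma adjusted p = 0.953), and its interval of -0.37 to 0.43 allows a difference in either direction. For Mt1 it was 0.11 ± 0.11 (SE, limma adjusted p = 0.636), with an interval of -0.13 to 0.35, and for Mtf1 it was -0.12 ± 0.08 (SE, limma adjusted p = 0.476). Mtf1 was lower in ETV6-NCOA2 in 3 of 3 pairs of the same replicate number, at a limma adjusted p of 0.365 with the replicate block. With replicate numbers entered as blocks in the model (a replicate block), 983 genes were called between the fusions in place of 425, and still 0 of these 4.

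The balance of the 2 metallothionein transcripts was compared over the libraries, within which it does not depend on scaling. The ratio of Mt2 to Mt1 normalized counts was 0.206, 0.262 and 0.260 in ETV6-NCOA2 replicates 1, 2 and 3, 0.219, 0.264 and 0.289 in the KAT6A-NCOA2 replicates, and 0.153, 0.211 and 0.169 in the empty vector replicates. KAT6A-NCOA2 did not overlap empty vector, with a two-sided exact permutation p of 0.1, the smallest that 3 libraries against 3 allow. ETV6-NCOA2 replicate 1 fell just under empty vector replicate 2, with an exact permutation p of 0.2. A test of 3 libraries against 3 cannot reach 0.05, so it cannot decide whether these ratios differ at that threshold. Between the fusions the exact permutation p was 0.5. The ratio was lower in ETV6-NCOA2 than in KAT6A-NCOA2 in 3 of 3 pairs of the same replicate number, and a paired exact permutation test added after the data were seen gave the smallest two-sided p that 3 pairs allow, 0.25.

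Across the 9 libraries Mt1 and Mt2 levels went together, on the log2 scale, with a Pearson r of 0.865 (permutation p = 0.0025) and a Spearman rho of 0.733 (permutation p = 0.031). Without the 2 libraries farthest from the median of Mt1, empty vector replicate 1 and ETV6-NCOA2 replicate 2, r was 0.580 (permutation p = 0.18), which no longer passes 0.05, so that the result of the test rests on those libraries, whose removal also narrows the range of Mt1. With any 1 library left out r was 0.74 to 0.90. Within groups, after each group mean was removed, r was 0.643 (permutation p = 0.21 over 216 arrangements). Mt2 and Slc30a1 had an r of 0.616 over the 9 libraries and 0.088 after group means were removed, both given as descriptions. Mtf1 had an r of -0.695 with Mt1 and -0.604 with Mt2. After group means were removed these were -0.620 and -0.670, also given as descriptions. For Mt1 with Slc30a1 r was 0.385, and -0.156 after group means were removed.

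The genes most like each member over the 9 libraries were taken from 6749 genes of at least median level, by Pearson r of log2 values, as a description. The points share the group differences and the replicate numbers. Mt2 was closest to Dusp1, a phosphatase that switches off MAP kinases (r = 0.98, and 0.96 after group means were removed), then to Trim3, Trib1 and Wsb1 (0.97, 0.96 and 0.96). Dusp1 had 7972, 10699 and 8841 normalized counts in ETV6-NCOA2 replicates 1, 2 and 3, 7382, 9084 and 9069 in the KAT6A-NCOA2 replicates, and 4711, 6197 and 6680 in the empty vector replicates. Mt1 was closest to Bcas2, a splicing factor (0.92), the immediate-early gene Fos (0.92), Dusp1 (0.90) and Rgs1 (0.90). Mtf1 was closest to the kinase gene Map4k4 (0.96), Wdr33 (0.93), Brip1os (0.92) and Rnf214 (0.89). Slc30a1 was closest to the actin regulators Evl (0.99) and Coro1b (0.98), to Clec7a, the myeloid receptor Dectin-1 (0.98), and to Vti1b (0.98). The macrophage marker sums given above were highest in KAT6A-NCOA2 libraries, as was Slc30a1, and their part in the Slc30a1 result was not tested.

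**Figure D3:**
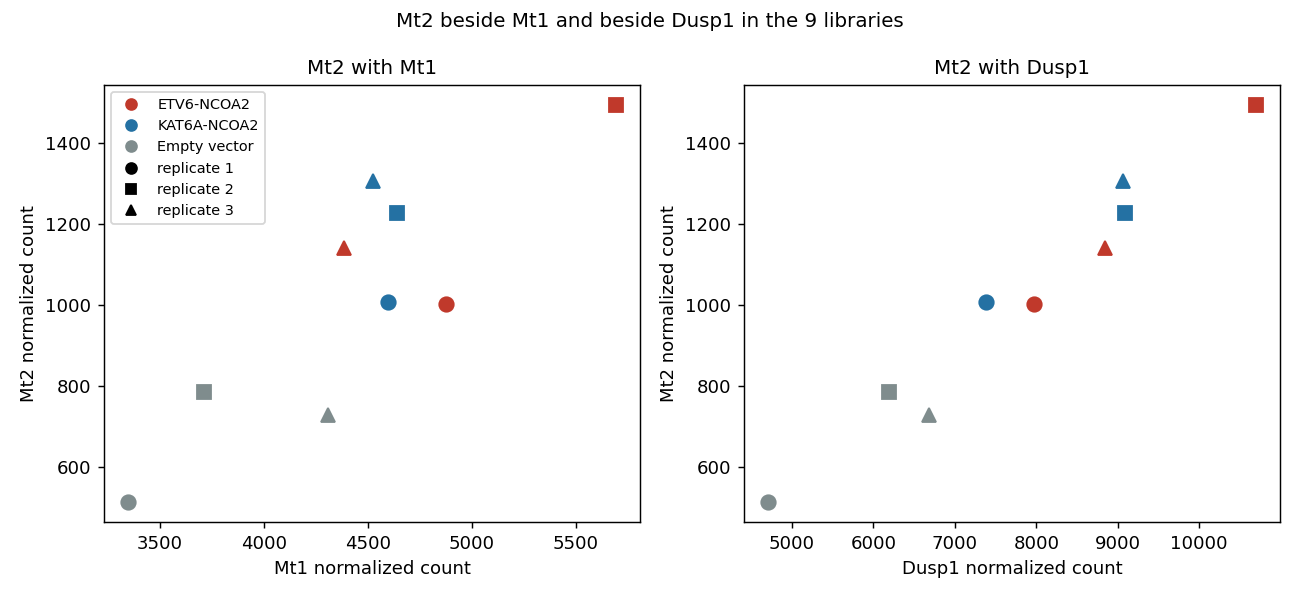
Mt2 normalized counts (vertical axes) against those of Mt1 (left) and Dusp1 (right) in the 9 libraries, with colours for groups and symbols for replicate numbers. The axes do not start at 0. The 3 empty vector libraries lie at the lower left and ETV6-NCOA2 replicate 2 at the upper right of both panels.

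The other zinc transporters were counted as 2 families. The Slc30 (ZnT) family moves zinc out of the cytosol, and 7 of its 10 listed genes were tested, Slc30a1 included. With ETV6-NCOA2 0 of the 7 passed the limma test (0 by edgeR, 0 by DESeq2, 1 at an unadjusted p below 0.05, and 1 without empty vector replicate 2), at a median log2 fold change of 0.08 against 0.01 for all genes. With KAT6A-NCOA2 2 rose and 1 fell, at a median of 0.14 against 0.02 for all genes. The share of all genes called was 2.84% with ETV6-NCOA2 and 25.4% with KAT6A-NCOA2, and that of the 7 was 42.9% with KAT6A-NCOA2. Besides Slc30a1, Slc30a4, which loads zinc into vesicles, rose by 0.83 ± 0.17 on the log2 scale (SE, limma adjusted p = 0.0058). Slc30a2, another vesicular zinc transporter, fell, with 33.6, 21.0 and 8.18 normalized counts in KAT6A-NCOA2 replicates 1, 2 and 3 against 195, 93.2 and 156 in the empty vector replicates. Its log2 fold change was -2.90 ± 0.42 (SE, limma adjusted p = 0.0012). ETV6-NCOA2 libraries had 177, 194 and 219, which is higher than KAT6A-NCOA2 by 3.36 ± 0.42 on the log2 scale (SE, limma adjusted p = 0.0026). The neutrophil granule markers given above were also lowest in KAT6A-NCOA2, and their part in the Slc30a2 result was not tested.

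The Slc39 (ZIP) family brings zinc into the cytosol, and 13 of its 14 listed genes were tested. With ETV6-NCOA2 1 rose and 0 fell, and with KAT6A-NCOA2 3 rose and 1 fell. The share called was 7.69% and 30.8% of the 13, against 2.84% and 25.4% of all genes. The medians were 0.08 and 0.15, against 0.01 and 0.02 for all genes, and between the fusions 0 of 13 passed the limma test (0 by edgeR, 1 by DESeq2, and 2 at an unadjusted p below 0.05). Slc39a2, which encodes a plasma membrane importer, had 74.2, 70.8 and 73.0 normalized counts in ETV6-NCOA2 replicates 1, 2 and 3, 61.1, 72.5 and 69.0 in the KAT6A-NCOA2 replicates, and 16.3, 39.2 and 32.0 in the empty vector replicates. Its log2 fold change was 1.38 ± 0.27 for ETV6-NCOA2 (SE, limma adjusted p = 0.030) and 1.27 ± 0.27 for KAT6A-NCOA2 (SE, limma adjusted p = 0.0078). The ETV6-NCOA2 call was lost in 6 of 9 fits that left out 1 library, with adjusted p between 0.0512 (without KAT6A-NCOA2 replicate 3) and 0.0962 (without ETV6-NCOA2 replicate 2). The others were without ETV6-NCOA2 replicate 1 or 3, KAT6A-NCOA2 replicate 2 and empty vector replicate 3, and in these 6 fits the value was 1.36 to 1.48. Over all 9 fits Slc39a2 ranged from 1.02 to 1.63 with ETV6-NCOA2 and from 0.91 to 1.52 with KAT6A-NCOA2.

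With KAT6A-NCOA2 Slc39a10 rose as well, a ZIP importer that MTF1 represses in the mouse, by 0.66 ± 0.17 on the log2 scale (SE, limma adjusted p = 0.016). That call was lost without KAT6A-NCOA2 replicate 2 (0.57, adjusted p = 0.0716) or replicate 3 (0.61, adjusted p = 0.0656), and without empty vector replicate 1 (0.53, adjusted p = 0.068) or replicate 3 (0.62, adjusted p = 0.0558). Slc39a1 rose by 0.32 ± 0.07 (SE, limma adjusted p = 0.0080), and with equal library totals it was 0.13 and not called. Slc39a8, an importer of zinc and manganese, fell with KAT6A-NCOA2, with 275, 229 and 264 normalized counts in its replicates 1, 2 and 3 against 958, 378 and 769 in the empty vector replicates. Its log2 fold change was -1.35 ± 0.28 (SE, limma adjusted p = 0.0073). ETV6-NCOA2 libraries had 429, 290 and 304, a log2 fold change of -0.96 ± 0.28 from empty vector that was not called (SE, limma adjusted p = 0.094). The mast cell and basophil markers were lower with both fusions, and their part in the Slc39a8 values was not tested. Without empty vector replicate 2, 7 importers were called with KAT6A-NCOA2 and 3 with ETV6-NCOA2.

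**Figure D4:**
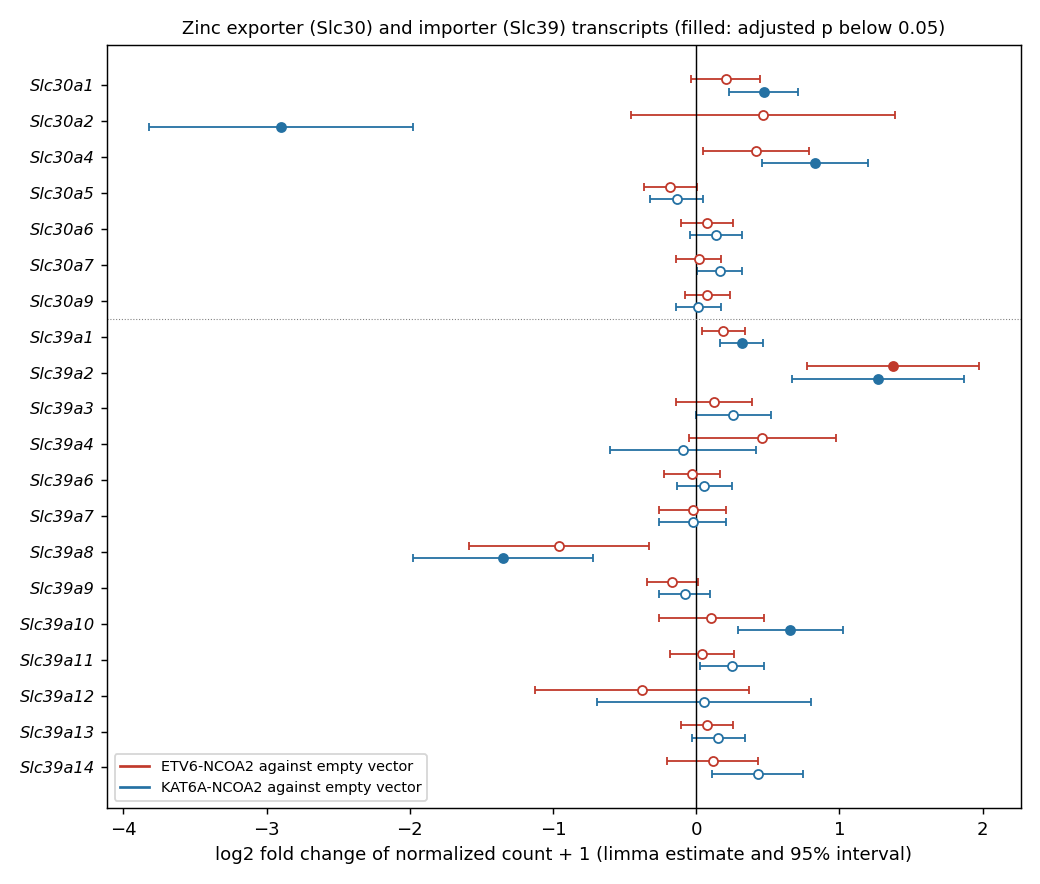
Log2 fold changes of normalized count + 1 (horizontal axis) with 95% intervals for the 7 Slc30 exporters (above the dotted line) and the 13 Slc39 importers (below it), with ETV6-NCOA2 above KAT6A-NCOA2 in each pair and filled points where the adjusted p was below 0.05. Most intervals cross or come near 0, and the points farthest from it are Slc30a2 with KAT6A-NCOA2 (-2.90), Slc39a2 with ETV6-NCOA2 (1.38) and KAT6A-NCOA2 (1.27), and Slc39a8 with KAT6A-NCOA2 (-1.35).

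Other genes that MTF1 is known to control were counted beside the members. Of 6 tested, 0 passed the limma test with ETV6-NCOA2 and 3 rose with KAT6A-NCOA2. The medians were 0.24 and 0.44, against 0.01 and 0.02 for all genes, of which 2.84% and 25.4% were called. With ETV6-NCOA2 edgeR and DESeq2 each called 2 of them, 2 had an unadjusted limma p below 0.05, and the 10 other settings gave 0 to 3 calls. The 3 that rose with KAT6A-NCOA2 were Slc39a10, the selenoprotein gene Selenow (0.30 ± 0.09, SE, limma adjusted p = 0.027) and the stress-response gene Ndrg1 (0.59 ± 0.15, SE, limma adjusted p = 0.015). With ETV6-NCOA2 the log2 fold changes were as large and missed the threshold narrowly, at 0.36 ± 0.09 for Selenow (SE, limma adjusted p = 0.05004) and 0.62 ± 0.15 for Ndrg1 (SE, limma adjusted p = 0.0517). Between the fusions the differences were 0.07 for Selenow (limma adjusted p = 0.729) and 0.03 for Ndrg1 (limma adjusted p = 0.938). With ETV6-NCOA2 the limma count was 1 without ETV6-NCOA2 replicate 1 or KAT6A-NCOA2 replicate 1 and 2 without empty vector replicate 2. With KAT6A-NCOA2 it was 0 in each of 4 fits, without KAT6A-NCOA2 replicate 2 or 3 and without empty vector replicate 1 or 3. Slc39a10 is also among the importers. MTF1 represses it in the mouse, so the count and the medians of this list have no single direction. Csrp1, Gclc and Pgf were not called with KAT6A-NCOA2, at -0.25, 0.06 and 0.78.

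Lists of genes for the other known inputs to the metallothionein genes were counted in the same way. These counts stand against 2.84% of all genes called with ETV6-NCOA2 and 25.4% with KAT6A-NCOA2. Of 12 glucocorticoid receptor targets, 2 rose with ETV6-NCOA2, namely Dusp1 (0.65 ± 0.15, SE, limma adjusted p = 0.048) and Zfp36, an RNA-binding regulator of cytokine transcripts (0.48 ± 0.08, SE, limma adjusted p = 0.020). With KAT6A-NCOA2 4 rose and 1 fell: Errfi1 (0.78), Klf9 (0.72), Sgk1 (0.64) and Dusp1 (0.55) rose, and Ddit4 fell by 0.59 on the log2 scale. The list medians were 0.16 with ETV6-NCOA2 and 0.19 with KAT6A-NCOA2, against 0.01 and 0.02 for all genes. Fkbp5, Tsc22d3, Per1, Nfkbia, Cebpd and Zbtb16 passed the limma test with neither fusion. Their log2 fold changes were -0.18 to 0.16 with ETV6-NCOA2 and -0.19 to 0.38 with KAT6A-NCOA2. With ETV6-NCOA2 the count among these 12 was 0 without ETV6-NCOA2 replicate 2 or 3 or empty vector replicate 1, and 4 without empty vector replicate 2. It was 1 without ETV6-NCOA2 replicate 1, KAT6A-NCOA2 replicate 2 or 3, or empty vector replicate 3. With KAT6A-NCOA2 it was 3 to 7 whichever library was left out, and 3 without KAT6A-NCOA2 replicate 2 or 3 or empty vector replicate 1.

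Of 11 genes of the interleukin-6 and STAT3 response, 1 passed the limma test with ETV6-NCOA2, the transcription factor gene Junb, which rose (0.38 ± 0.07, SE, limma adjusted p = 0.023). There edgeR called 1 and DESeq2 3, 4 had an unadjusted limma p below 0.05, and the 10 other settings gave 0 to 4. With KAT6A-NCOA2 5 rose and 1 fell, where 25.4% of all genes were called, against 2.84% with ETV6-NCOA2. Il6st, the shared signalling subunit of the receptor, rose by 0.99, Il6ra, its ligand-binding subunit, by 0.74 and the transcription factor gene Cebpb by 0.67 on the log2 scale, while Lcn2 fell by 2.77. Lcn2 is also a neutrophil granule gene, and the granule markers were lowest in KAT6A-NCOA2. Bcl3, Junb, Cebpd, Saa3 and Pim1 did not pass the limma test with KAT6A-NCOA2, at log2 fold changes of -0.18 to 0.18. The list medians were 0.19 with ETV6-NCOA2 and 0.18 with KAT6A-NCOA2, against 0.01 and 0.02 for all genes. With ETV6-NCOA2 the count was 0 without ETV6-NCOA2 replicate 2 or 3 or empty vector replicate 1 or 3, 2 without KAT6A-NCOA2 replicate 1 and 4 without empty vector replicate 2. With KAT6A-NCOA2 it was 3 without KAT6A-NCOA2 replicate 3 or empty vector replicate 1.

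Of 12 NRF2 target genes, which respond to oxidative stress, 0 passed the limma test with ETV6-NCOA2 and 6 rose with KAT6A-NCOA2, at medians of 0.08 and 0.29. With ETV6-NCOA2 edgeR and DESeq2 also called 0, and 6 had an unadjusted limma p below 0.05. Among these 6, Nqo1 was lower (-0.84), and Osgin1, Slc7a11, Prdx1, Txn1 and Hmox1 were higher, at 0.25 to 0.39. The largest rises with KAT6A-NCOA2 were Slc7a11, the cystine importer (1.05 ± 0.16, SE, limma adjusted p = 0.0014), and the peroxiredoxin gene Prdx1 (0.93 ± 0.15, SE, limma adjusted p = 0.0018). Next with KAT6A-NCOA2 were the heme oxygenase gene Hmox1 (0.65 ± 0.11, SE, limma adjusted p = 0.0028) and Txn1 at 0.49. Nqo1 (-0.38), Gsr (-0.15), G6pdx (-0.08), Gclc (0.06), Gclm (0.13) and Osgin1 (0.29) did not pass the limma test with KAT6A-NCOA2. With ETV6-NCOA2 1 was called without ETV6-NCOA2 replicate 1 and 5 without empty vector replicate 2, and with KAT6A-NCOA2 4 to 6 were called whichever library was left out. The share called with KAT6A-NCOA2 is read against the 25.4% of all genes called there, and the counts over short lists are descriptions.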

How the data were processed

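RNA was measured by bulk poly-A sequencing in 9 libraries, in 3 groups of 3. The deposited table holds what the authors call normalized counts, a signal with 2 decimals scaled by 1 factor per library. Per the submitters' processing notes, cutadapt, STAR 2.4.2a, HTSeq, DESeq2 and GRCm38 were used; their order, and the rule that left no gene with a maximum below 5.22, are not given in the sources used here. Values of a library were all multiples of 1 number within 0.01, so reads could be recovered (100% whole), 17.1 to 20.4 M per library. Without molecular identifiers reads cannot be taken as independent molecules, and more reads mean less counting error for Mt1 than for Mtf1 or Slc30a1. A thresholds sheet was not used for tests.

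The tests used limma 3.58.1 in R 4.3.3 (lmFit, eBayes with trend) on log2(value + 1), which understates changes of low genes, with all 9 libraries in 1 fit. Testing was limited to the 13750 genes reaching 10 in 3 or more libraries (3516 were left out). Benjamini-Hochberg adjustment was made per comparison, with calls at an adjusted p below 0.05. The model was tested on simulated data. Levels per kilobase used the principal (APPRIS) GENCODE vM21 transcript, the longest where several, with a length for 97.0% of genes. The members and the gene lists (zinc transporters, MTF1, NRF2, glucocorticoid and STAT3 targets, copper handling, heat shock, cell markers) were chosen with earlier results of these data known. Named were the 4 members, up to 4 called genes of each list and comparison with the largest changes, and the 4 genes most like each member. Deviations of equally numbered libraries correlated at 0.30, 0.20 and 0.29 between ETV6-NCOA2 and KAT6A-NCOA2, all above 0.1, so the replicate number was taken to pair those groups, as a hint of the data and not of the labels. Alternatives were pseudocounts of 0.1 and 5, no filter, 2 groups only, a replicate block, edgeR 4.0.16, DESeq2 1.42.0 and limma-voom on recovered reads, equal library totals, TMM scaling, and each library left out in turn.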

Additional observations from a re-analysis of the deposited data

How the results depend on the processing

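The 4 genes were refitted under 10 other settings and without each library in turn. With KAT6A-NCOA2, Mt2 and Slc30a1 were called in all 19, and leaving out 1 library gave 2 to 3 called genes. With ETV6-NCOA2, 1 gene was called, 0 when only the 2 groups were fitted (Mt2 at 0.85, adjusted p = 0.0712), 2 with DESeq2 (Mt1 at 0.39, adjusted p = 0.0257), and 0 to 2 without 1 library. Over those 9 fits Mt2 ranged from 0.66 to 0.98 and Slc30a1 from 0.12 to 0.33 with ETV6-NCOA2, and Mt1 from 0.20 to 0.38 with KAT6A-NCOA2. Mtf1 with KAT6A-NCOA2 ranged from -0.066 to 0.033 and changed sign without KAT6A-NCOA2 replicate 2 (0.020) and without empty vector replicate 1 (0.033). Mt2 between the fusions ranged from -0.13 to 0.16 and changed sign without ETV6-NCOA2 replicate 2 (-0.13) and without KAT6A-NCOA2 replicate 1 (-0.081). The cause was not tested. The replicate block changed no call of the 4 genes (Mt2 adjusted p = 0.0017 with ETV6-NCOA2), though replicate numbers of the fusion and empty vector libraries correlated at -0.08 to 0.39, and 2 of 6 and 3 of 6 libraries correlated best with their own number. Over all genes the calls with ETV6-NCOA2 were 390, 1255 with the block, 1016 with DESeq2, 174 with 2 groups only and 61 to 1765 without 1 library. With KAT6A-NCOA2 they were 3488 and 1779 to 4320 without 1 library. Between the fusions they were 425, 983 with the block, 793 with DESeq2, 823 with 2 groups only, 771 with equal totals, 284 with limma-voom and 163 to 913 without 1 library. Equal totals moved the median of all genes by -0.08 with ETV6-NCOA2, -0.19 with KAT6A-NCOA2 and 0.11 between the fusions. Depth limits Mt3, at 6 to 15 reads, more than the 4 genes.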

Other observations

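Copper shares the metallothioneins as a ligand, and its handling genes were counted as well. Of 11 tested, 0 passed the limma test with ETV6-NCOA2 (1 by edgeR, 1 by DESeq2, and 2 at an unadjusted p below 0.05). With KAT6A-NCOA2 2 rose and 2 fell, which is 36.4% of the 11, where 25.4% of all genes were called. Atp7a, a copper-exporting ATPase, rose by 0.86 ± 0.19 on the log2 scale (SE, limma adjusted p = 0.0094), and the copper chaperone gene Atox1 rose by 0.31 ± 0.07 (SE, limma adjusted p = 0.0075). Sod1, the copper and zinc superoxide dismutase gene, had 1220, 1094 and 1004 normalized counts in KAT6A-NCOA2 replicates 1, 2 and 3, against 1644, 1412 and 1460 in the empty vector replicates, a log2 fold change of -0.45 ± 0.09 (SE, limma adjusted p = 0.0061). ETV6-NCOA2 libraries had 1558, 1467 and 1360, higher than KAT6A-NCOA2 by 0.40 ± 0.09 (SE, limma adjusted p = 0.039). Atp7b, the related ATPase, fell with KAT6A-NCOA2, with 8.15, 1.05 and 5.84 normalized counts in its replicates 1, 2 and 3, against 45.9, 14.8 and 59.5 in the empty vector replicates. ETV6-NCOA2 libraries had 6.27, 6.70 and 5.14, all below the empty vector libraries, and the log2 fold change of -2.34 ± 0.61 was not called (SE, limma adjusted p = 0.0696). With KAT6A-NCOA2 4 to 5 of the 11 were called whichever library was left out, and with ETV6-NCOA2 1 was called without KAT6A-NCOA2 replicate 2 and 2 without empty vector replicate 2.

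Of 9 heat shock genes, Hspd1, a mitochondrial chaperone gene, fell by 0.49 with ETV6-NCOA2 (limma adjusted p = 0.016) and was the single call there. With KAT6A-NCOA2 1 rose and 2 fell: the co-chaperone gene Bag3 rose by 0.56, and Hsp90aa1 and Hspd1 each fell by 0.57 on the log2 scale. The share of the 9 called was 11.1% with ETV6-NCOA2 and 33.3% with KAT6A-NCOA2, against 2.84% and 25.4% of all genes. Leaving out 1 library gave 0 to 3 calls with ETV6-NCOA2, with 0 without its replicate 2 or 3 or without empty vector replicate 1, 3 without empty vector replicate 2, and 3 to 4 with KAT6A-NCOA2. With equal library totals 7 were called with KAT6A-NCOA2.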
